A study of Mus musculus with 6 samples.

Results

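The cytosolic ribosomal protein genes were taken as the protein-coding rows of the deposited table whose symbol is Rplp0, Rplp1, Rplp2 or Rpsa, or consists of Rpl or Rps and a number with an optional a, x or l and an optional last digit (as in Rps3a1 and Rpl7l1). This rule found 84 of 48897 rows, 52 with Rpl symbols (large subunit) and 32 with Rps symbols (small subunit), and it used no measured value. Polyadenylated RNA was sequenced from mouse embryonic fibroblasts of strain C57BL/6 at passages 5 to 7, a primary culture of connective tissue cells. The control cells received PBS, the TC cells received TNF-α and cycloheximide, and the TCZ cells received TNF-α, cycloheximide and z-VAD-fmk, with 2 libraries in each of the 3 groups. TNF-α is an inflammatory cytokine, cycloheximide is a translation inhibitor that binds the ribosome, and z-VAD-fmk inhibits caspases. The labels state neither doses nor times. No group received TNF-α or cycloheximide alone, so the parts played by these agents cannot be told apart.

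Each ribosome carries one copy of most ribosomal proteins, and their mRNAs are among the most abundant of growing cells. Most of these mRNAs begin with a C followed by a run of pyrimidines, the terminal oligopyrimidine (TOP) motif, through which mTORC1 and the RNA-binding protein LARP1 control their translation and stability. Ribosomal proteins that are not built into ribosomes are degraded, and a few of them, with the 5S ribosomal RNA, bind the p53 regulator MDM2.

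The promoters of the members shared features of sequence that the choice by name did not use. In RefSeq promoters of GRCm38.p6, which reach from 250 bases before to 50 after a start, 64 of the 84 members matched, with 76 promoters among the 32851 in the collection. A C followed by at least 4 pyrimidines exactly at the annotated start was found in 18.4% of member promoters and in 2.51% of all promoters. A run of 6 or more pyrimidines beginning between 10 bases before and 29 after the start was found in 68.4% and 36.5%. On either strand, the ETS-type motif CCGGAAG was held by 35.5% of member promoters and 8.86% of all, the YY1-type motif AAGATGGC by 10.5% and 2.75%, and the Sp1-type motif GGGCGG by 59.2% and 35.7%. The TATA motif TATAAA was held by 10.5% and 13.6%, and the E-box CACGTG by 10.5% and 7.15%. The letters CTTTC near the start, on the gene's strand, were found in 23.7% and 4.85%, and they can lie inside a counted pyrimidine run. A match describes letters and does not show a bound site.

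Windows of 100 bases, 70 before and 30 from the start on, are printed below from RefSeq GRCm38.p6, in the direction of the gene. They were picked to set members that were lower in TC (Rpl13a, Rpl14, Rplp2) beside a member that did not pass there (Rps6) and the members that were higher there (Rpl10a, Rpl39l, Rpl7l1); since they were picked by these calls, no relation of sequence to change is drawn from them. They lie at chr7:45128716-45128815 on the minus strand (Rpl13a), chr9:120571447-120571546 on the plus strand (Rpl14), chr7:141447581-141447680 on the plus strand (Rplp2), chr4:86857338-86857437 on the minus strand (Rps6), chr17:28328495-28328594 on the plus strand (Rpl10a), chr16:10170158-10170257 on the plus strand (Rpl39l) and chr17:46782627-46782726 on the minus strand (Rpl7l1). Capitals mark the longest pyrimidine run near the start, and in Rpl7l1, whose longest such run has 2 bases, the motif AAGATGGC. Rpl10a has 2 annotated starts, and the one with the longer run is shown.
Rpl13a: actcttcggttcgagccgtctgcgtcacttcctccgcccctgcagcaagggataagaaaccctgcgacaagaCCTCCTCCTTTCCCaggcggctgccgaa
Rpl14: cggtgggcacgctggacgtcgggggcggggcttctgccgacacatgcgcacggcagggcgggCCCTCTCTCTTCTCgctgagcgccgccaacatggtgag
Rplp2: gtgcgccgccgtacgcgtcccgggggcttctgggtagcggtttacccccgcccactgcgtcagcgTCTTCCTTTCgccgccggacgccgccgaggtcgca
Rps6: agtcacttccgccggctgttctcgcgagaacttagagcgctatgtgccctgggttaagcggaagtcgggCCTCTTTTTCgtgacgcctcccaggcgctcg
Rpl10a: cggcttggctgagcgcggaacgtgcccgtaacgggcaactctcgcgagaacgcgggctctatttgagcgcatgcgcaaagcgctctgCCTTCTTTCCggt
Rpl39l: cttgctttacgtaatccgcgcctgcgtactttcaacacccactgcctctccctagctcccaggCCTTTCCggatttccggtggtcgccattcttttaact
Rpl7l1: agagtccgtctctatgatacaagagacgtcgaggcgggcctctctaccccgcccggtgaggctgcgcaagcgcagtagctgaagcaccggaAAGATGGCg

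Library totals ran from 24922627 to 52909926 counts. The 2 shallowest libraries, control 2 and TCZ 2, also held at most 3 counts of the U1 RNA Rnu1a1 against 165 to 274 in the other 4. They were not alike in another RNA, Rn7s1, with 1338 counts in control 2 and 4 in TCZ 2, against 4916 to 6106 in the other 4. Results are also given without control 2 and TCZ 2, where the spread between libraries comes from the 2 TC libraries alone. These 2 libraries include no TC library, which leaves too few libraries for a comparison of their own. Summed fibroblast markers (11 genes, all with counts) stood at 33029 to 37634 CPM (counts scaled to a common library total) in the 6 libraries, although single markers moved: Col1a1 stood at 12383 and 11504 CPM in control and 6945 and 7316 CPM in TC, and Fn1 at 12333 and 11387 CPM in control and 15847 and 15603 CPM in TC. Pdgfrb stood at 522 and 494 CPM in control and 153 and 150 CPM in TC. Pdgfra stood at 112 and 99.9 CPM in control, 65.2 and 61.9 CPM in TC, and 17.8 and 15.1 CPM in TCZ. Summed macrophage and leukocyte markers stood at 15.4 CPM in both controls, 12.3 to 14.4 CPM in TC and 26.8 to 28.7 CPM in TCZ. Cd3e was at 0 in control and TC. Summed epithelial markers stood at 2.8 CPM in both controls, 12 to 13 CPM in TC and 2.3 to 2.7 CPM in TCZ. Neural sums were 204 to 212.5, 224 to 231 and 114 to 117 CPM in the same order. Nes carried most of them, at 173 and 170 CPM in control and 210 and 214 CPM in TC. Tubb3 went the other way, at 37.25 and 31.9 CPM in control and 5.89 and 8.07 CPM in TC. Muscle sums were 40.2 to 44.9, 61.7 to 63.3 and 33.4 to 40.9 CPM. Des carried nearly all of them, at 44.9 and 39.9 CPM in control, where Myod1 and Myog were at 0. Summed endothelial markers stood at 12.6 and 13.2 CPM in control, 141 and 148 CPM in TC, and 56.6 and 57.6 CPM in TCZ. One of the 6 genes, Kdr, carried the TC sum, at 144 and 138 CPM, while the defining markers Pecam1 and Cdh5 were under 1 CPM in both TC libraries; in TCZ Pecam1 stood at 10.9 and 10.8 CPM and Kdr at 40.8 and 39.1 CPM. The part of these markers in the results was not tested. Each library is a bulk sample scaled to its own counts, so fewer cells carrying a transcript and less of it per cell cannot be told apart.

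The members together took a smaller share of the counts in TC than in control or TCZ. They held 3.53% and 3.37% of all counts in the control libraries, against 2.71% and 2.72% in the TC libraries and 3.47% and 3.09% in the TCZ libraries. Both TC libraries lay below the other 4, while the TCZ libraries lay on both sides of control 2. The means were 3.45% ± 0.113 in control, 2.72% ± 0.00543 in TC and 3.28% ± 0.271 in TCZ (SD, n = 2). In a two-sided exact permutation test over libraries, p was 0.333 for TC against control, 0.667 for TCZ against control and 0.333 for TCZ against TC, and 0.333 is the smallest p that 2 libraries against 2 allow. The large subunit genes held 2.07%, 1.65% and 1.98% on average in control, TC and TCZ, and the small subunit genes 1.38%, 1.07% and 1.30%.

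**Figure D1:**
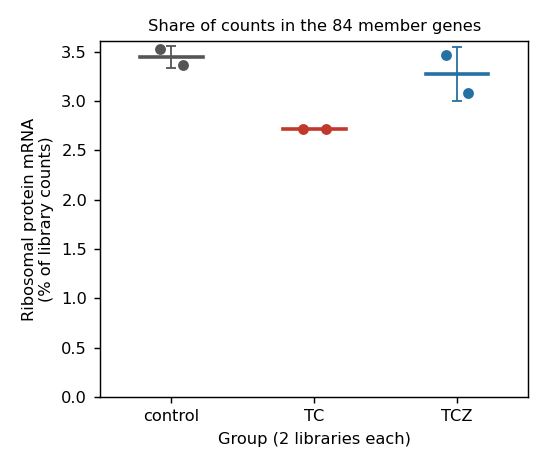
Share of each library's counts held by the 84 member genes (vertical axis, percent, from 0) in the 3 groups. Points are libraries, wide bars are group means and thin bars are the SD of 2 libraries; both TC libraries, at 2.71% and 2.72%, lie below the other 4.

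Levels per length differed widely between members. Of the 84, 81 had enough counts to be tested; Rpl10l had 0 counts in all 6 libraries, Rpl3l had between 0 and 6, and Rpl32l, which lies inside another gene, had between 2 and 8. These 3 belong to a set of 7 diverged paralogs. Averaged over the 6 libraries, the 77 other members ranged from 59.6 RPKM (reads per kilobase of length, scaled to the library total; Rps15a, whose listed length of 5136 bases is the longest) to 1709.9 RPKM (Rplp1, listed length 468 bases), with a median of 438 RPKM. Ribosomal protein genes have many processed pseudogenes, and 189 rows of the table are named as pseudogenes of 48 members. They held counts equal to between 0.308% and 0.365% of the members' counts per library, and for one member at most 5.72% (Rpl17). How reads with several matches were counted is not given in the sources used here, so the split between a member and its copies is uncertain.

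In TC, 40 of the 81 tested members fell and 3 rose against control, at an adjusted p under 0.05 over all genes. Among all 18563 genes tested 29.1% were lower and 31.5% were higher. The median log2 fold change (TMM scale) was -0.19 over members, from -0.59 to 0.96, and 0.02 over all genes. In 59 members both TC libraries lay below both controls, a pattern that 38.8% of all genes showed. Of the large subunit genes 22 of 49 were lower, with a median of -0.17, and of the small subunit genes 18 of 32, with a median of -0.22. Both TC libraries lay below both controls in 32 large and 27 small subunit genes, and the difference between the subunits was not tested.
Without control 2 and TCZ 2, the fit takes its spread from the 2 TC libraries alone, which over members differed least within a group. The number of members lower in TC depended on the libraries. It was 74 without control 2 and TCZ 2, where 27.1% of all genes were lower, and 15 without control 1, where 21.5% of all genes were lower and the members' median was -0.09. Rpl12, Rpl27a, Rpl4, Rpl7, Rps10, Rps2, Rps27 and Rps27a, which did not pass in the reported fit, were called lower without control 2 and TCZ 2. A group of 12 members, Rpl13a, Rpl14, Rpl22l1, Rpl36a, Rpl39, Rplp0, Rplp1, Rps26, Rps29, Rps3, Rps4x and Rpsa, was called lower in all 19 settings tried, the reported fit included. How many of all genes were lower in all 19 was not counted, so this group has no share to stand beside.

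**Figure D2:**
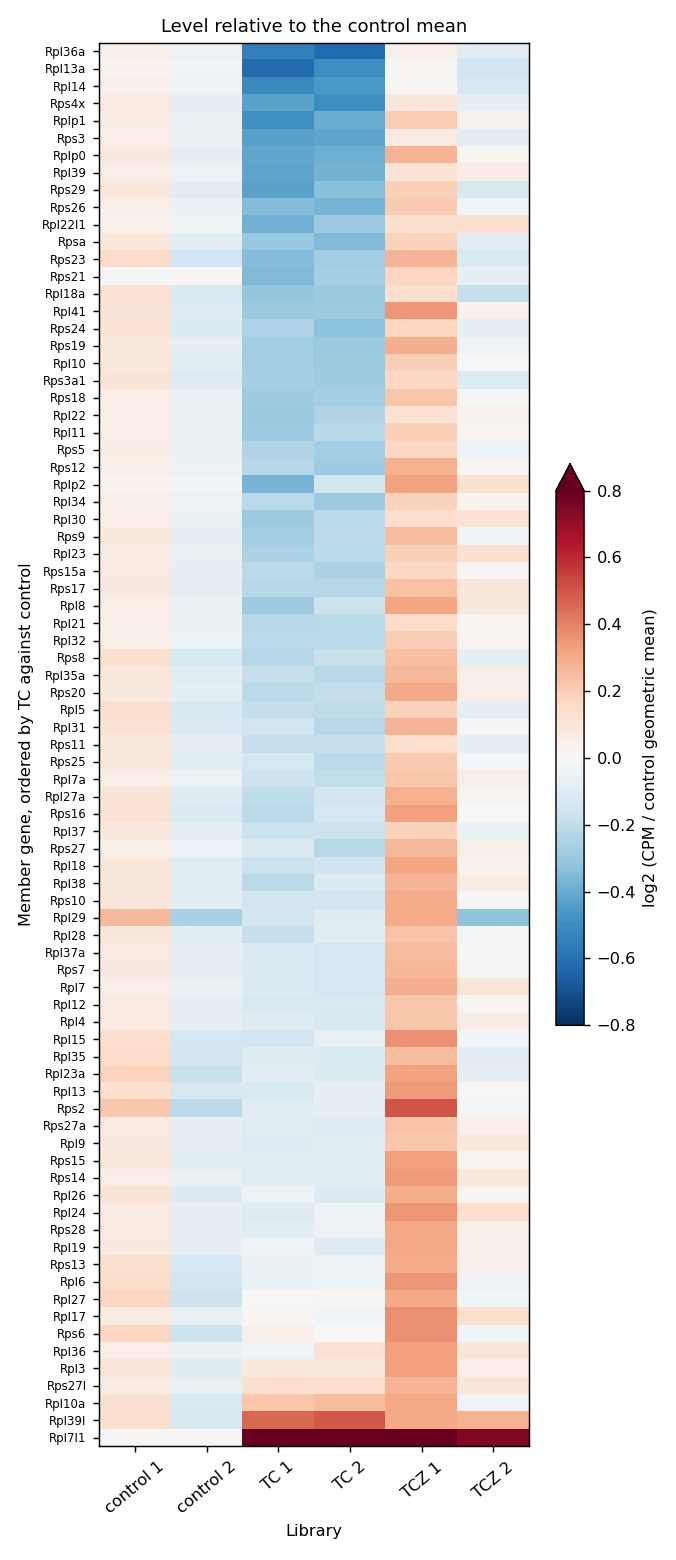
Level of the 81 tested members (rows, ordered by TC against control) in the 6 libraries (columns), as the log2 ratio of CPM to the geometric mean of both controls; blue is lower, red is higher, and the scale ends at 0.8 in either direction. Both TC columns are blue for most rows, TCZ 1 is red for most, and Rpl7l1 in the last row is high in all 4 treated libraries.

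In TCZ against TC, 69 members were higher and 1, Rpl7l1, was lower, where 28.2% of all genes were higher and 27.9% lower. The median was 0.32 over members and 0.02 over all genes. Both TCZ libraries lay above both TC libraries in 71 members, a pattern that 40.1% of all genes showed. The count was 78 without control 2 and TCZ 2, where 25% of all genes were higher, and 29 without TCZ 1, where 20.6% were higher. A group of 29 members was higher in all 19 settings, among them Rplp0, Rplp1, Rplp2, Rpl11, Rpl36a, Rpl39, Rps3, Rps19 and Rps20. The share of all genes higher in all 19 was not counted. The comparison uses the same TC libraries as TC against control, so the values of both are given side by side and not as separate evidence.

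In TCZ against control, 10 members were higher and none was lower with edgeR (0 also at an unadjusted p under 0.05, and 0 with DESeq2 and limma-voom), where 31.5% of all genes were higher and 28.6% lower. The median was 0.14 over members and 0.05 over all genes, and both TCZ libraries lay above both controls in 17 members, against 40.6% of all genes. The direction depended on the scaling. When libraries were scaled by their totals only, all genes had a median of -0.15 and the members one of -0.06; 1 member was higher and 17 were lower, beside 24.5% and 37.8% of all genes. The count of higher members was 48 without control 2 and TCZ 2, where 25.6% of all genes were higher, and 1 without control 2 alone or without TCZ 1 alone, where 24.8% and 25.4% were. Among members, only Rpl7l1 was higher in all 19 settings, which was not counted over all genes.

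**Figure D3:**
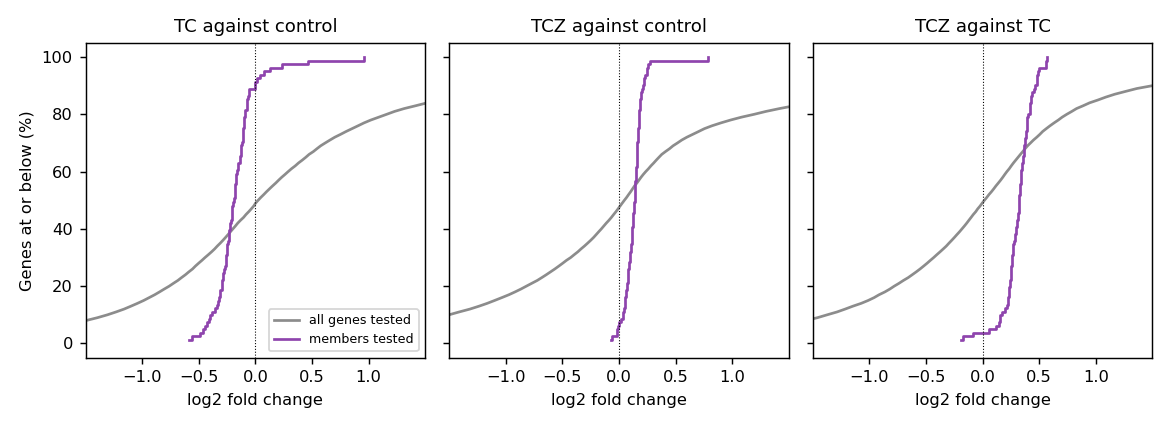
Cumulative percentage of genes (vertical axis) at or below each log2 fold change (horizontal axis, shown from -1.5 to 1.5) in the 3 comparisons, for all 18563 genes tested (grey) and the 81 members tested (purple). The members form a narrow band with medians of -0.19, 0.14 and 0.32, inside the much wider spread of all genes.

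The ribosomal stalk, which recruits the elongation factors, had the largest median change of the role groups with 3 or more tested members in TC against control (-0.33) and in TCZ against TC (0.52). Rplp0, Rplp1 and Rplp2 form it and Rpl12 lies at its base. The 2 genes of the cycloheximide pocket, given below, had a larger median fall in TC (-0.38). Their median rise in TCZ against TC was smaller (0.45). Rplp0 (chromosome 5, 115559467 to 115563729, plus strand, mm10) stood at 1372 and 1236 CPM in control, 975 and 994 CPM in TC, and 1580 and 1317 CPM in TCZ. Both TC libraries were below the other 4, and TCZ overlapped control. Its log2 change was -0.41 ± 0.08 (SE; adjusted p = 0.000187) in TC against control, 0.56 ± 0.08 (adjusted p = 5.59e-06) in TCZ against TC and 0.15 ± 0.08 (adjusted p = 0.114) in TCZ against control. Rplp1 (chromosome 9, 61913283 to 61914510, minus strand) had the same order, with 885 and 817, 604 and 645, and 979 and 868 CPM. It fell by 0.45 ± 0.08 on the log2 scale in TC (adjusted p = 2.63e-05) and was higher by 0.56 ± 0.08 in TCZ than in TC (adjusted p = 1.78e-06).
Rplp2, the partner of Rplp1, stood at 324 and 311 CPM in control, 245 and 287 CPM in TC, and 398 and 346 CPM in TCZ, with no overlap between any 2 groups. It fell in TC (log2 -0.25 ± 0.08, adjusted p = 0.0113), although not without control 1 or TC 1 or with no low-count filter, and it was 1 of the 10 members higher in TCZ than in control (0.23 ± 0.08, adjusted p = 0.0218), although not without control 1, control 2 or TCZ 1, with library totals alone or with no low-count filter. Rpl12 did not pass in TC (-0.12 ± 0.08, adjusted p = 0.174) and was higher in TCZ than in TC (0.25 ± 0.08, adjusted p = 0.00951), although not without TC 1, TC 2 or TCZ 1 or with no low-count filter. In all, 3 of these 4 genes were lower in TC than in control, where 29.1% of all genes were, and 4 of 4 were higher in TCZ than in TC, where 28.2% of all genes were.

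Of the proteins that line the pocket where cycloheximide binds, Rpl36a had the largest fall of any member. Rpl36a (chromosome X, 134585654 to 134588062, plus strand) stood at 170 and 158 CPM in control, 112 and 106 CPM in TC, and 169 and 154 CPM in TCZ. Both TC libraries lay far below the other 4, and TCZ and control overlapped. It fell by 0.59 ± 0.07 on the log2 scale in TC (adjusted p = 5.06e-07), and TCZ exceeded TC by 0.56 ± 0.07 (adjusted p = 1.3e-06). Rpl27a, the other gene listed for this pocket, stood at 434 and 375, 349 and 364, and 492 and 409 CPM. Its TC libraries were also the lowest, but the change from control did not pass (-0.18 ± 0.09, adjusted p = 0.0741).

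The next largest falls were those of Rpl13a and Rpl14, both large subunit proteins; phosphorylated human RPL13A also has a role in silencing inflammatory mRNAs. Rpl13a stood at 755 and 728 CPM in control, 483 and 524 CPM in TC, and 746 and 667 CPM in TCZ (log2 change in TC -0.56 ± 0.07, adjusted p = 1.07e-06). Rpl14 stood at 445 and 421, 303 and 314, and 437 and 392.5 CPM (-0.49 ± 0.07, adjusted p = 5.37e-06). In both genes TC was below all other libraries and TCZ overlapped control. The windows printed above hold a pyrimidine run of 14 bases in both genes, and of 10 bases in Rplp2, Rps6 and Rpl10a. Since the windows were picked by their calls, no relation to the change is drawn.

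Rpl5 and Rpl11, which bind the 5S ribosomal RNA and MDM2, were both lower in TC. Rpl11 stood at 299 and 277 CPM in control, 235 and 246 CPM in TC, and 329 and 293 CPM in TCZ (TC against control -0.26 ± 0.08, adjusted p = 0.00537), a call lost without control 1 or TC 1 and with no low-count filter. Rpl5 stood at 605 and 508, 486 and 482, and 629 and 527 CPM (-0.20 ± 0.09, adjusted p = 0.0491), and its call was lost without control 1, TC 1 or TC 2, with DESeq2 and with no low-count filter. Of 8 tested genes of a list of 5S particle and MDM2 factors, which also holds the p53 pathway genes Trp53 and Cdkn1a, 7 were higher in TC and none lower with edgeR (0 also at an unadjusted p under 0.05, and 0 with DESeq2 and limma-voom), with a median of 0.51; over all genes 31.5% were higher and 29.1% lower. Mdm2, the p53 ubiquitin ligase, stood at 198 and 183 CPM in control, 504 and 490 CPM in TC, and 407 and 409 CPM in TCZ.

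Genes of the polypeptide exit tunnel were unequal. Rpl39, a small protein near the tunnel's end, stood at 208 and 195 CPM in control, 151 and 155 CPM in TC, and 218 and 210 CPM in TCZ, so that TC lay below all other libraries (-0.40 ± 0.07, adjusted p = 4.22e-05). Rpl4, which reaches into the tunnel, stood at 1132 and 1032, 1011 and 989, and 1263 and 1125 CPM, and the change in TC did not pass (-0.11 ± 0.07, adjusted p = 0.194). Rpl17 stood at 369 and 339, 357 and 349, and 456 and 386 CPM. Control and TC overlapped, and TCZ was higher than control (0.25 ± 0.08, adjusted p = 0.0098), although not without control 2 or TCZ 1, with library totals alone or with no low-count filter.

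Of the 4 small subunit proteins that are ubiquitinated on stalled ribosomes, Rps3 and Rps20 were lower in TC. Over all genes, 29.1% were lower in TC than in control, and 28.2% were higher in TCZ than in TC. Rps3 stood at 590 and 550 CPM in control, 422 and 426 CPM in TC, and 597 and 535 CPM in TCZ (-0.43 ± 0.07, adjusted p = 2.9e-05), with TC below all other libraries. Rps20 changed by -0.20 ± 0.08 (adjusted p = 0.0335) and lost its call without control 1, TC 1 or TC 2 and with no low-count filter, and Rps10 by -0.16 ± 0.09 (adjusted p = 0.133). Rps2 stood at 1113 and 825 CPM in control, 899 and 908 CPM in TC, and 1359 and 950 CPM in TCZ. Its TC libraries lay between the 2 controls, and its change of -0.10 ± 0.12 in TC did not pass (adjusted p = 0.496). All 4 were higher in TCZ than in TC, but Rps2 (0.35 ± 0.12, adjusted p = 0.0189) and Rps10 (0.30 ± 0.09, adjusted p = 0.00602) not without TCZ 1, and Rps2 not with DESeq2.

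Other small subunit genes showed the same order of groups. Rps4x, encoded on the X chromosome, stood at 716 and 653 CPM in control, 508 and 484 CPM in TC, and 728 and 654 CPM in TCZ (TC against control -0.47 ± 0.08, adjusted p = 1.32e-05). Rpsa, also known as a laminin receptor, stood at 1213 and 1084, 929 and 898, and 1304 and 1076 CPM (-0.33 ± 0.08, adjusted p = 0.00171). Both had TC below the other 4 libraries and TCZ overlapping control. Rps19, whose human gene is the one most often mutated in Diamond-Blackfan anaemia, stood at 320 and 288, 250 and 247, and 370 and 297 CPM (-0.29 ± 0.09, adjusted p = 0.00646), and lost its call without control 1. Rps6, the substrate of S6 kinase, did not follow them. It stood at 565 and 447 CPM in control, 521 and 504 CPM in TC, and 648 and 492 CPM in TCZ, and no comparison passed (TC against control 0.02 ± 0.11, adjusted p = 0.9). Without control 2 and TCZ 2 its value in TC was -0.15 (adjusted p = 0.0111). Rps27a, made as a fusion with ubiquitin, changed by -0.10 ± 0.08 in TC (adjusted p = 0.272).

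**Figure D4:**
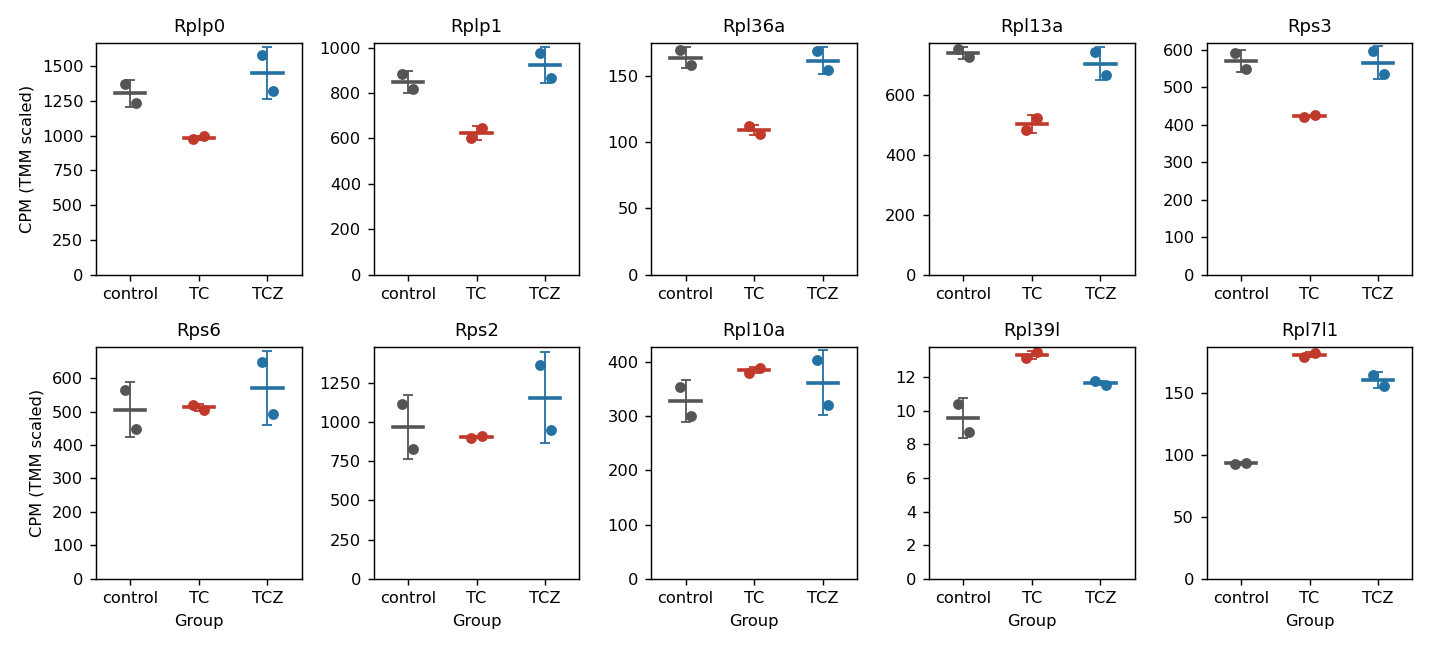
CPM (TMM scaled, vertical axes from 0) of 10 members in control, TC and TCZ. Points are libraries, wide bars are means and thin bars are the SD of 2 libraries; TC is lowest in Rplp0, Rplp1, Rpl36a, Rpl13a and Rps3, lies between the other libraries in Rps6 and Rps2, and is highest in Rpl39l and Rpl7l1.

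Of the 4 diverged paralogs tested, Rpl7l1 and Rpl39l rose in TC, Rpl22l1 fell and Rps27l did not pass. Rpl7l1 (chromosome 17, 46773907 to 46782656, minus strand), a nucleolar paralog of Rpl7 found in large subunit precursors, stood at 92.5 and 93.7 CPM in control, 179 and 182 CPM in TC, and 165 and 156 CPM in TCZ. The 3 groups did not overlap. It rose by 0.96 ± 0.07 on the log2 scale in TC (adjusted p = 9.35e-11) and by 0.79 ± 0.07 in TCZ (adjusted p = 2.84e-09). TCZ was below TC by a log2 difference of -0.17 ± 0.07 (adjusted p = 0.0409), a call lost without TC 1, TC 2 or TCZ 2, without control 2 and TCZ 2, with no low-count filter and after thinning to equal depth. Rpl7 itself stood at 662 and 614, 591 and 580, and 780 and 680 CPM, so that the counts of Rpl7l1 equalled 14.0% and 15.3% of those of Rpl7 in control, 30.4% and 31.4% of them in TC, and 21.1% and 22.9% of them in TCZ.

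Rpl39l, a paralog of Rpl39 known from the male germ line, was expressed at a low level of 10.4 and 8.73 CPM in control, 13.1 and 13.5 CPM in TC, and 11.7 and 11.5 CPM in TCZ. Again no groups overlapped, with the order the reverse of Rpl39 in TC (0.47 ± 0.11, adjusted p = 0.0013, and higher in all 19 settings). In TCZ against control it passed narrowly (0.28 ± 0.12, adjusted p = 0.0496) and lost its call without any 1 library other than control 1, without control 2 and TCZ 2, and with library totals alone, DESeq2, limma-voom, no low-count filter or a replicate block. Its counts equalled 4.99% and 4.47% of those of Rpl39 in control, 8.71% and 8.66% of them in TC, and 5.39% and 5.50% of them in TCZ. These genes encode nearly identical proteins, so reads may have been split between them.

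Rps27l, a p53 target, and Rpl22l1 complete the tested paralogs. Rps27l stood at 125 and 115 CPM in control, 131 and 132 CPM in TC, and 145 and 128 CPM in TCZ. It did not pass in TC (0.13 ± 0.08, adjusted p = 0.143) and was higher in TCZ than in control (0.19 ± 0.08, adjusted p = 0.0391), but not with any 1 of control 2, TC 1, TC 2 or TCZ 1 left out, with library totals alone or with no low-count filter. Rpl22l1 stood at 42.2 and 40.2, 31.6 and 33.6, and 45 and 45.2 CPM and fell in TC (-0.34 ± 0.08, adjusted p = 0.000598). Its counts stayed between 22% and 25.1% of those of Rpl22 in the 6 libraries; Rpl22 also fell in TC (-0.27 ± 0.07, adjusted p = 0.00284), although not without TC 1 or with no low-count filter.
Outside the paralogs, only Rpl10a, a protein of the L1 stalk, was called higher in TC, at 354 and 300 CPM in control, 380 and 389 CPM in TC, and 404 and 320 CPM in TCZ. TC lay above both controls (0.23 ± 0.09, adjusted p = 0.0357), but the value was 0.11 without control 2 and the call was lost there, without TC 1 or TC 2, when control 2 and TCZ 2 were left out or given a batch term, with DESeq2 and with library totals alone (0.09).

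The libraries of one group differed from each other in a pattern that control and TCZ shared. The log2 ratio of control 2 to control 1 had a median of -0.14 over the 81 members and was below 0 in 79, and that of TCZ 2 to TCZ 1 had a median of -0.24 and was below 0 in 80. Between TC 2 and TC 1 the median was 0.01, and 33 members were below 0. Across the 77 members that are not diverged paralogs, the ratios in control and TCZ had a Pearson's r of 0.82 and a Spearman's rho of 0.78, and those in control and TC had an r of 0.08. These are descriptions across genes that share libraries, depth and scaling.
Rpl29 had the lowest ratio in both, at -0.52 in control, -0.62 in TCZ and 0.05 in TC. Rps2 came next, at -0.43, -0.52 and 0.01. Rpl23a, Rpl27, Rps6 and Rps23 were also among the lowest, so that these members had wide errors in each comparison with control. Control 2 and TCZ 2 are the libraries with the fewest counts and little U1 RNA, and the part of depth and RNA quality was not tested. The libraries of each group differed by more than counting noise, with a chi-square per member of 27.5 for the controls, 12 for TC and 30.2 for TCZ.

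**Figure D5:**
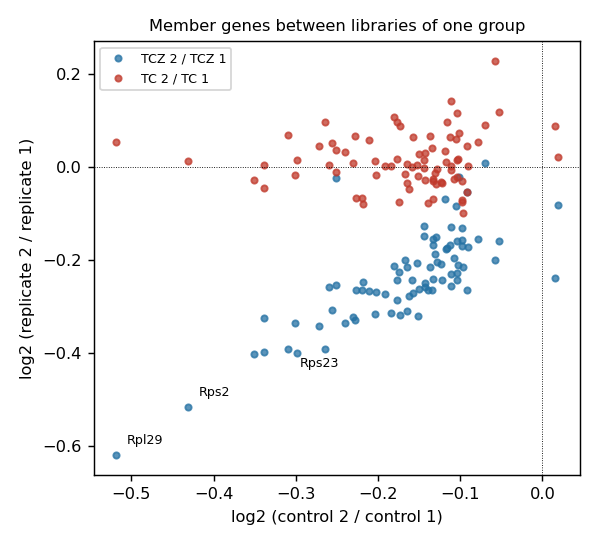
Log2 ratio of replicate 2 to replicate 1 for each tested member in control (horizontal axis) against the same ratio in TCZ (blue) and TC (red) on the vertical axis. The TCZ ratios fall along a slope with those of control, from Rpl29 at -0.52 and -0.62 upward, while the TC ratios lie around 0.

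The members were also divided by gene structure, and no difference between these divisions was tested. Over all genes tested, 29.1% were lower and 31.5% higher in TC than in control. Of 24 members that host a small nucleolar RNA listed in the table, 12 were lower in TC, with a median of -0.20, and of the 53 others 27 were lower, with a median of -0.19. With the hosts annotated in GENCODE, 17 of 30 hosts and 22 of 47 other members were lower, with medians of -0.20 and -0.18. Of 17 members with an annotated isoform subject to nonsense-mediated decay in GENCODE, 9 were lower and 1 was higher, and of the 60 without one 30 were lower. Across members, the change in TC had a Spearman's rho of 0.14 with transcript GC content (72 members), 0.07 with the length listed in the table and -0.05 with mean RPKM (77 members each).

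Counts for genes linked to the family stand beside the shares of all genes tested, which were 31.5% higher and 29.1% lower in TC against control, 31.5% and 28.6% in TCZ against control, and 28.2% and 27.9% in TCZ against TC. Of 25 other TOP mRNAs, 12 were lower and 5 higher in TC, 10 higher and 1 lower in TCZ against control, and 17 higher and none lower in TCZ against TC with edgeR (1 lower at an unadjusted p under 0.05, and 1 with DESeq2 or limma-voom), with medians of -0.17, 0.13 and 0.29. Eef2, an elongation factor, stood at 2805 and 2616 CPM in control, 2215 and 2322 CPM in TC, and 3304 and 2941 CPM in TCZ, with no overlap between groups. Others went apart from this order: Eif4b, an initiation factor, stood at 393 and 366, 279 and 281, and 255 and 248 CPM, lower in both treated groups.
Of 22 genes of mTORC1, S6 kinase and LARP1, 7 were higher and 9 lower in TC, 6 and 10 in TCZ against control, and 8 and 9 in TCZ against TC; the 7 higher in TC are near the 31.5% of all genes. Larp1, which binds TOP motifs, stood at 340 and 318 CPM in control, 259 and 256 CPM in TC, and 209 and 199 CPM in TCZ. Of 14 transcription factors with sites in ribosomal protein promoters, 7 were higher and 4 lower in TC, 4 and 7 in TCZ against control, and 3 and 9 in TCZ against TC; the 4 lower in TC are near the 29.1% of all genes. Myc, a regulator of ribosome production, stood at 87.2 and 76.9 CPM in control, 275 and 273 CPM in TC, and 566 and 505 CPM in TCZ. Its order of groups was control, TC and TCZ, unlike that of most members.
Of 17 genes for chaperones and import of ribosomal proteins, 9 were higher and 3 lower in TC, 7 and 3 in TCZ against control, and 2 and 5 in TCZ against TC, beside 31.5% and 29.1%, 31.5% and 28.6%, and 28.2% and 27.9% of all genes. Grwd1, a chaperone of Rpl3, stood at 34.5 and 32.5 CPM in control, 53.3 and 56.4 CPM in TC, and 29.7 and 25.7 CPM in TCZ. Of 20 genes of ribosome stalling and ribotoxic stress, 8 were higher and 7 lower in TC, 6 and 5 in TCZ against control, and 4 and 7 in TCZ against TC; the 6 higher in TCZ against control are near the 31.5% of all genes. Zfp598, which ubiquitinates Rps10 and Rps20 on collided ribosomes, stood at 37.4 and 36.6, 53.2 and 57.6, and 44.2 and 36.8 CPM, and was higher in TC than in control (0.58 ± 0.08, adjusted p = 3.7e-06).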

How the data were processed

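Counts per gene and RPKM values were deposited by the authors in one table, per the file headers. The deposited RPKM equalled counts divided by the listed length and the library total. The submitters' processing notes name HISAT2 2.1.0, HTSeq, bcl2fastq and build mm10, and no source used here gives the strand setting or annotation. The test was edgeR 4.0.16 under R 4.3.3: genes passing filterByExpr (minimum count 10), TMM factors, one model of all 6 libraries by group (3 residual degrees of freedom), the quasi-likelihood test and Benjamini-Hochberg adjustment over 18563 genes, at 0.05. Adjusted p-values are from this fit, and CPM are TMM scaled. The labels do not say whether libraries sharing a group are separate cultures; p-values reflect only the spread between these libraries, possibly technical.

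The members, role groups and lists were chosen with earlier results of these data known. Named genes were those fixed by role, the diverged paralogs and their partners, and up to 3 members with the largest called change in each direction and comparison; genes outside the family and those of the replicate comparison were named after their values were seen. No list was tested as a set. Alternatives included DESeq2 1.42.0, limma-voom (limma 3.58.1), other scalings and filters, a replicate block, libraries left out and thinning to equal depth. The edgeR fit was also run on simulated counts in which few genes changed, and only in TC. Many more genes were called in the real libraries, so that run does not check the scaling.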

Additional observations from a re-analysis of the deposited data

How the results depend on the processing

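Counts of members called moved with the libraries, scaling and filter, as did the shares of all genes called. Of all genes, 29.1% were lower in TC against control as reported, 35.5% with library totals alone and 14.8% with no low-count filter. With a batch term for control 2 and TCZ 2 the share was 29.3%. In TCZ against control 31.5% were higher as reported, 33.2% with RLE size factors, 24.5% with library totals alone and 17% with no low-count filter. The share was 36.9% with at least 50 counts in 2 libraries and 30.5% with DESeq2. It was 31.9% with limma-voom, 33.1% with only the 2 groups compared and 31.5% with the replicate block. With the batch term it was 32.8%, and after thinning 33.4%. Genes called in all 19 settings were counted only among members. Lower members in TC against control numbered 40 as reported, 72 with library totals alone, 21 with no low-count filter, 74 with control 2 and TCZ 2 left out and 74 when they had a batch term; leaving out 1 library gave 15 to 53. Higher members in TCZ against control numbered 10 as reported, 31 with RLE size factors, 1 with library totals alone, 33 with DESeq2, 16 with limma-voom, 1 with no low-count filter, 58 with at least 50 counts in 2 libraries, 16 with only the 2 groups compared, 27 with the replicate block, 48 with control 2 and TCZ 2 left out, 55 when they had a batch term and 35 after thinning; leaving out 1 library gave 1 to 47. Higher members in TCZ against TC numbered 69, and 29 to 77 with 1 library left out. Library totals alone moved the members' median to -0.33 in TC against control and -0.06 in TCZ against control, with the median of all genes at -0.11 and -0.15. Under that scaling the TCZ against control values of Rpl22 (-0.12), Rpl39 (-0.12), Rpl5 (-0.14), Rpl7 (-0.00), Rps27l (-0.01), Rps4x (-0.19) and Rpsa (-0.15) fell below 0. In TC against control Rps6 moved to -0.15 when both were left out and to -0.16 under the batch term. Over all genes the deviations of same-numbered libraries correlated at 0.0123 between control and TC, 0.105 between control and TCZ and -0.0204 between TC and TCZ. Control 2 and TCZ 2 deviated alike over the 77 members that are not diverged paralogs (Pearson's r 0.82). The low values over all genes therefore cannot settle whether the numbers pair libraries. Under the replicate block 48 members were lower in TC and 72 higher in TCZ than in TC, beside 29.2% and 28.3% of all genes. The cause of these shifts was not tested. With 2 libraries a group, a lone library left in a group is assumed to vary like the others, and changes below about 0.2 on the log2 scale mostly did not pass.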
